A study of Mus musculus with 4 samples.

Results

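The genes described are 10 collagen chains, Col1a1, Col1a2, Col3a1, Col5a1, Col5a2, Col5a3, Col6a1, Col6a3, Col12a1 and Col14a1. They were taken by symbol, 10 of the 32285 genes listed in the feature tables, and each symbol matched 1 gene. Together they are chains of the fibrous collagens of annulus, tendon and scar. In mouse tail discs at 7 days after a needle puncture, 9 of these 10 genes had a higher level in the fibroblast-like cells of both injured libraries than in either control library, as did 25% of all genes tested, and 6 of them were called higher by edgeR, against 1.29% of genes. Of the 6, Col5a3 passed the filter on low counts only through the injured libraries; of the 9 collagens that a control library also carried past the filter 5 were called, against 0.447% of such genes. With an unnamed cluster led by Ccl11 and Dpep1, whose markers were nearest to this class, counted in it, 3 of the 10 were called, against 1.02% of genes. In the cartilage-like cells, of 9 collagens tested, only Col1a1 was called higher, by 3.29 ± 0.45 (SE, n = 2 libraries per group) on the log2 scale, and with the round as a block, since the control and injured discs of a round came from the same animals, 8 of the 9 were, against 4.64% of genes. The cartilage-like class was made of different clusters in the 2 groups, and within the cluster led by Cnmd and Grem1, most frequent in the control libraries, the Col1a1 difference was -0.07 ± 0.50, with overlap. In the clusters led by M1ap and Fmod and by Gdf5 and Zfp52, Col1a1 was higher in the injured library of round 2. The latter rested on few control UMIs, and neither was tested. Without the round 1 barcodes found in both libraries no gene, and so no collagen, was called in either class. The median difference of the collagens was then 1.83 in place of 1.94 in the fibroblast-like and 1.65 in place of 1.60 in the cartilage-like cells.

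The samples were 2 control and 2 injured libraries, 1 of each in round 1 and in round 2, measured by droplet single-cell RNA sequencing of transcript 3′ ends. All mice were wildtype C57BL/6 females aged 12 weeks. Injured discs were the tail levels CC5/6 to CC9/10, punctured from both sides with a 30G needle, and control discs were the unpunctured levels CC12/13 to CC16/17 of the same animals. Discs were pooled into 1 suspension per library, with 6 mice and 30 discs per group in the labels, then frozen, thawed and sorted for viable cells by exclusion of DAPI, a dye that enters dead cells. Tail level and injury cannot be told apart in any comparison. Because the discs were pooled, p-values measure the spread between 2 libraries per group, not between animals.

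Type I collagen, built from the products of Col1a1 and Col1a2, is the main load-bearing fibril of the outer annulus fibrosus, tendon and mature scar. Type III (Col3a1) co-assembles with it in compliant tissue and is known for its early appearance in granulation tissue. Type V chains (Col5a1, Col5a2 and the less common Col5a3) lie within fibrils and set their diameter, type VI (Col6a1, Col6a3) forms beaded filaments around cells, and types XII (Col12a1) and XIV (Col14a1) bind to the surface of fibrils. The inner annulus and nucleus of a disc are instead rich in type II collagen and aggrecan.

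A barcode counted as a cell from 250 detected genes on, which gave 378 in the control and 778 in the injured library of round 1, and 856 and 1834 in round 2. Libraries held 1114210 to 16972879 unique molecular identifiers (UMIs, 1 per captured transcript). Cells of the control libraries had medians of 1062 and 836 UMIs, those of the injured ones 7034 and 4635, so depth per cell moved with injury, and its part in the results below was not tested. The control matrix of round 1 listed only 444 barcodes, and 159 of its 378 cells carried a barcode whose UMIs in the injured library of round 1 were at least 0.3 times those in the control. In clusters made without the 10 collagens, marker genes gave an inner annulus or cartilage-like class of 204, 480, 254 and 1036 cells and an outer annulus or fibroblast-like class of 33, 33, 55 and 397 cells (control and injured of round 1, then of round 2). These 2 classes are called inner and outer below. Barcodes shared by that ratio were 93 and 96 of the inner cells of round 1, and 0 and 6 of the outer cells. Inner clusters each had 4 to 7 of the 15 inner markers detected above other cells, and outer clusters 8 to 11 of the 18 outer markers. Levels are given as UMIs per 1000000 UMIs of the same cells (CPM), and pairs of values as round 1 then round 2. They are not divided by transcript length, so levels are compared within a gene, and ratios of 2 genes only between libraries.

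The genes lie on 7 chromosomes of mm10 (GENCODE M21). Col3a1 (chromosome 1, 45311538 to 45349706, plus strand) and Col5a2 (45374321 to 45503282, minus strand) are neighbours, with their 3′ ends 24614 bases apart. Col6a3 lies on the same chromosome at 90765923 to 90843971, minus strand. Col5a3 (20770050 to 20815067) and Col12a1 (79598991 to 79718831) are both on the minus strand of chromosome 9. Col1a1 is at 94936224 to 94953042 on chromosome 11, Col1a2 at 4504814 to 4541544 on chromosome 6, Col5a1 at 27886425 to 28039514 on chromosome 2 and Col14a1 at 55307750 to 55520803 on chromosome 15, all on the plus strand. Col6a1 is at 76708792 to 76726168 on the minus strand of chromosome 10.

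The RefSeq promoter table (GRCm38.p6) held 6 of the 10 genes. The 150 bases before the start site are shown for 4 of them that were called higher together in the outer class, Col3a1 (chr1:45311388-45311537, plus strand), Col5a1 (chr2:27886275-27886424, plus), Col5a3 (chr9:20815068-20815217, minus) and Col6a3 (chr1:90843972-90844121, minus). Each is written 5′ to 3′ on the gene's strand, with TATAAA or CCAAT in capitals where either occurs on it.
Col3a1: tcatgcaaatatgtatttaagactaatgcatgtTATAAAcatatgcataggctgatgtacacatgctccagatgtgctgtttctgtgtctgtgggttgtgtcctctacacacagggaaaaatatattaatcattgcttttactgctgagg
Col5a1: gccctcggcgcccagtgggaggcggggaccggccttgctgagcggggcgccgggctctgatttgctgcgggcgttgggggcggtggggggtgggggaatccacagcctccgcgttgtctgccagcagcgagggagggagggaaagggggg
Col5a3: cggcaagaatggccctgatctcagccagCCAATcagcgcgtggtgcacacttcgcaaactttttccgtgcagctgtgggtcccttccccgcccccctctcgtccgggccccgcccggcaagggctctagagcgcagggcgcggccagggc
Col6a3: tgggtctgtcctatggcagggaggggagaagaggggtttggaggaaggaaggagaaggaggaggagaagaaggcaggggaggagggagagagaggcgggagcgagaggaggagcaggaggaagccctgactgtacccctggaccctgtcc
The 4 sequences are unlike in base composition. Over the 250 bases upstream of the start, GC content was 35.2% for Col3a1, 76.4% for Col5a1, 62.8% for Col5a3 and 57.2% for Col6a3, against a median of 52.4% over 32851 promoters. On both strands of these 250 bases 4 motifs were searched: the TATA box as TATAAA, the CAAT box as CCAAT, the GC box as GGGCGG and a short SMAD-binding motif as CAGAC. No motif contains another. TATAAA occurred once in Col3a1 only among the 4, and in 12.37% of all promoters. CCAAT occurred once in Col5a3 and in 33.85% of promoters. GGGCGG occurred in Col5a1 and Col5a3, 2 times each, and in 32.74% of promoters. CAGAC occurred 2 times in Col3a1, 2 times in Col6a3 and once in Col5a1, and in 42.19% of promoters. No motif was held by all 4.

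The levels over the cell clusters are described with no test. Col1a1, the α1 chain of type I, was highest in injured round 2 in the outer cluster led by Aspn and Cthrc1, at 19243 CPM. It was 15923 CPM in a cluster of dividing outer cells led by Hist1h2ap and Cenpf, 12218 CPM in the inner cluster led by M1ap and Fmod, and 11377 CPM in the outer cluster led by Myoc and Angptl7. The other inner clusters of that library were far lower for Col1a1, from 97.9 CPM in the cluster led by Gdf5 to 2619 CPM in the one led by Mmp12 and Mmp3. Endothelial-like cells, which are not known as a source of fibrillar collagen, were at 66.8 CPM for Col1a1.

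Col3a1 and Col5a3 were high in fewer of the disc clusters. Col3a1 in injured round 2 was 11938 CPM in the Aspn and Cthrc1 cluster, 9002 CPM in the dividing outer cells and 4825 CPM in mural-like cells, the contractile cells of vessel walls. It was 1295 CPM in the Myoc and Angptl7 cluster, so the outer clusters differed widely in Col3a1. Col5a3, the rarer type V chain, was 930 CPM in the 19 mural-like cells, 878 CPM in the dividing outer cells, 760 CPM in the Aspn and Cthrc1 cluster and 0 in the 76 cells of the Myoc and Angptl7 cluster. In control round 2 most Col5a3 UMIs, 59.8%, lay in an unnamed cluster led by Ccl11 and Dpep1 (266 cells). In that library the same cluster had 5221 CPM of Col3a1 and 364 CPM of Col14a1. Its markers were nearest to the outer annulus or fibroblast list, with 5 detected above other cells. It was left unnamed, and out of the outer class, because its 16 cells in control round 1 were barcodes that both round 1 libraries held at a similar depth; its 266 cells of control round 2 were not checked in this way. The collagen calls of the outer class are given with and without it.

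Type VI collagen was detected in every inner and outer cluster. Col6a1 in injured round 2 lay between 1622 CPM (Cnmd and Grem1) and 4518 CPM (M1ap and Fmod) over all inner clusters, and Col6a3 between 1017 and 2952 CPM in the same 2 clusters. The outer cluster led by Aspn and Cthrc1 lay inside both ranges, with 2827 CPM of Col6a1 and 2341 CPM of Col6a3. The outer cluster led by Myoc and Angptl7 had 2070 CPM of Col6a1, inside the inner range, and 885 CPM of Col6a3, below it. Endothelial-like cells stood at 22.3 CPM for each. The cluster led by Igkc and Jchain had 0 UMIs of all 10 genes in the 3 libraries with at least 10 of its cells. Of the remaining genes, Col14a1 was at most 97.0 CPM in any inner or outer cluster of injured round 2.

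**Figure D1:**
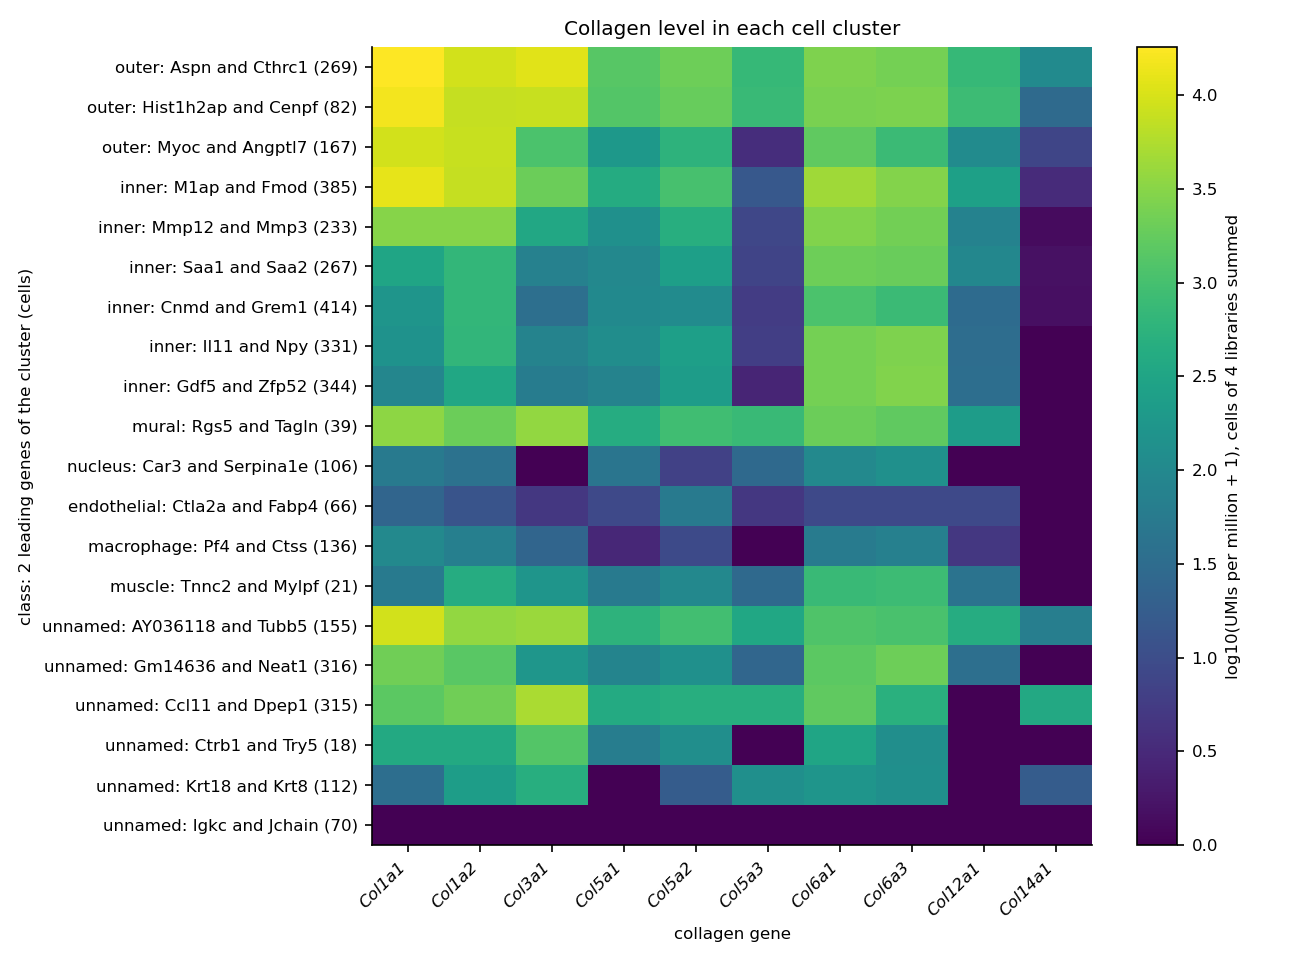
Level of each collagen (columns) in each of 20 clusters (rows, named by class and 2 leading genes, with cells in brackets), as log10 of CPM plus 1 over the summed cells of 4 libraries. Col5a3 lies between 339 and 780 CPM in the clusters led by Aspn, Hist1h2ap, Rgs5 (mural), Ccl11 and AY036118, and is at most 13.9 CPM in all inner clusters and the Myoc and Angptl7 cluster.

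Over all cells, 7 of the 10 collagens had a higher level in both injured libraries than in either control library, a pattern shown by 16.4% of all 11990 genes tested. The 10 collagens together made up 0.512% and 0.640% of the UMIs of control cells and 1.31% and 2.33% of those of injured cells. No collagen was called by edgeR's quasi-likelihood test at an adjusted p under 0.05, where 0.117% of genes were called, all of them lower. An unadjusted p under 0.05 was found for 8 of the 10, as for 7.91% of genes, and DESeq2 called 5 of the 10 higher where it called 0.343% of genes higher. In summed cells, a larger share of producing cells and more RNA per cell cannot be told apart.

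The type I chains did not overlap between the groups. Col1a1 was 1223 and 1345 CPM in the control libraries and 3689 and 8177 CPM in the injured ones. Col1a2 was 1440 and 1825 CPM in control and 3016 and 4665 CPM in injured libraries. Injured round 2 was the highest library for both. The log2 difference of Col1a1 was 2.29 ± 0.50 (SE, n = 2 per group; edgeR adjusted p = 0.21).

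Col3a1 overlapped between the groups, at 356 and 747 CPM in control and 656 and 3482 CPM in injured libraries. Col5a3 did as well, at 15.03 and 42.6 CPM in control and 23.6 and 222 CPM in injured libraries. In both genes injured round 1 lay below control round 2 and injured round 2 stood far above the rest. Col14a1, the fibril-surface collagen of mature tendon, had its highest level in control round 2 at 36.6 CPM and its lowest in injured round 1 at 1.93 CPM, with 12.2 and 22.1 CPM in the others.

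These 3 genes with overlapping groups depended on 4 unnamed clusters that in control round 1 were mostly barcodes held at a similar depth in both libraries. In all libraries together most of their cells came from control round 2, and leaving the clusters out took that library from 856 to 478 cells. Without them Col3a1 was 308 and 508 CPM in control and 651 and 3484 CPM in injured cells, and Col5a3 was 10.7 and 18.1 against 22.8 and 222 CPM, both without overlap. Col14a1 was then 8.79 and 19.6 CPM against 1.49 and 21.8 CPM, so that injured round 2 and no longer control round 2 was the highest library. Its injured to control ratio in round 2 was 1.11 (95% interval 0.789 to 1.60), in place of 0.604.

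The other 5 genes did not overlap between the groups. Col5a1 was 102 and 123 CPM in control against 171.5 and 542 CPM in injured libraries, and Col5a2 was 178 and 192 CPM against 482 and 921.5 CPM. Col6a1 was 1007 and 1149 CPM against 2679 and 2691 CPM, and Col6a3 was 747 and 892 CPM against 2301 and 2285 CPM. The 2 injured libraries were nearly equal in both type VI chains. Col12a1 was 34.8 and 48.1 CPM against 73.4 and 315 CPM.

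The median log2 difference of the 10 genes was 1.88, against -0.01 over all genes. With the round as a block, 9 of the 10 were called higher (edgeR adjusted p = 0.0027 to 0.044), all but Col14a1, where 2.73% of genes were called higher. Leaving out 1 library, which leaves 1 in its group, changed the numbers of collagens and of all genes called. The difference then ran from 1.56 to 2.79 for Col1a1 and from 0.29 to 2.78 for Col3a1.

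**Figure D2:**
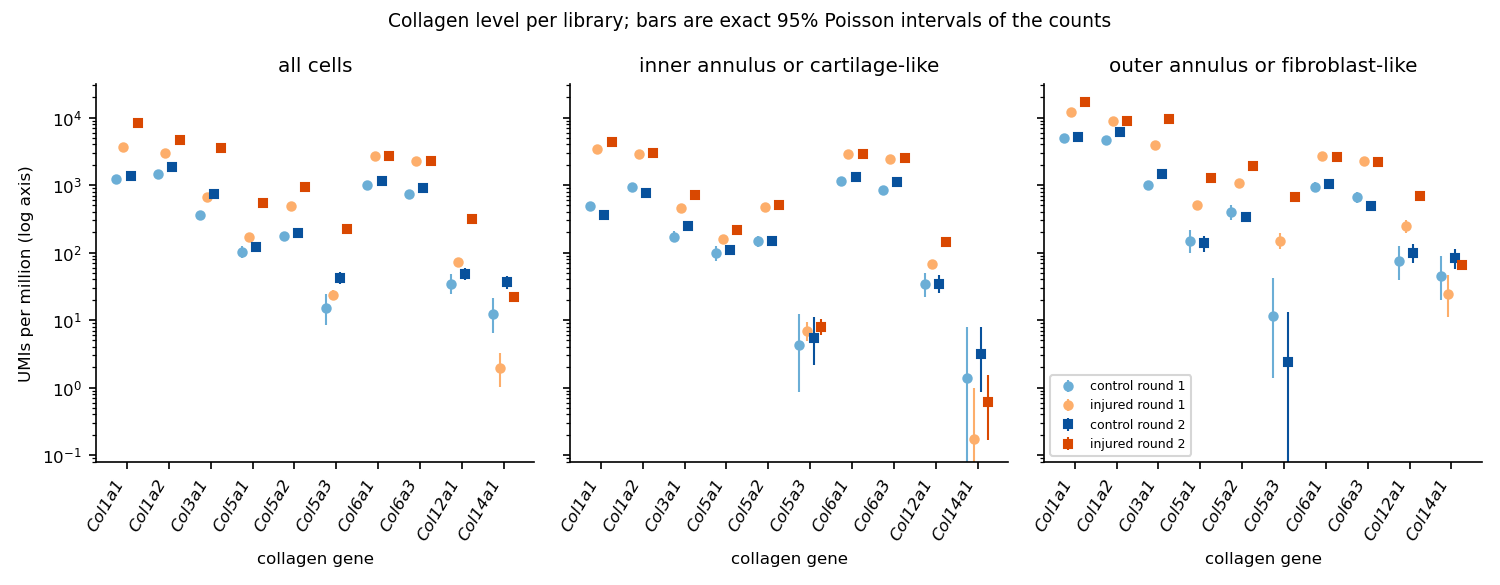
Level of each collagen per library in CPM (log axis), for all cells and for the inner and outer classes; bars are exact 95% Poisson intervals and cover counting error only. In the outer class, both injured libraries lie above both control libraries for 9 of 10 genes.

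In the outer class, fibroblast-like by its markers, 9 of 10 collagens were higher in both injured libraries than in either control library, where 25% of 5174 genes tested were. edgeR called 6 of the 10 higher, against 1.29% of all genes, and none lower. The 6 were Col3a1, Col5a1, Col5a2, Col5a3, Col6a3 and Col12a1. Col5a3 was below the filter on low counts in both control libraries and entered the test only through the injured ones; the other 9 passed it in both control libraries. Of these 9, 8 did not overlap and 5 were called, against 21.1% and 0.447% of the 4923 genes that passed it in at least 1 control library. The median difference of the 10 was 1.94, against 0.01 over all genes.

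Neither type I chain was called. Col1a1 was 5013 and 5147 CPM in control and 12078 and 17188 CPM in injured outer cells, with no overlap, and its difference of 1.49 ± 0.39 did not pass (SE, n = 2 per group; edgeR adjusted p = 0.078). It passed with the round as a block (adjusted p = 0.0017) and in DESeq2 (adjusted p = 0.026). Col1a2 was 4618 and 6192 CPM against 8779 and 8863 CPM, a difference of 0.66 ± 0.38 (edgeR adjusted p = 0.51). Both chains of the heterotrimer were higher in both injured libraries, and the fitted difference was the larger for the α1 chain.

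Col3a1 rose by 2.42 ± 0.50 (SE, n = 2 per group; edgeR adjusted p = 0.025). It was 1000 and 1449 CPM in control and 3862 and 9539 CPM in injured outer cells, with no overlap. Within rounds the injured to control ratio was 3.86 (95% interval 3.30 to 4.54) in round 1 and 6.58 (6.08 to 7.14) in round 2. After thinning each cell to 500 UMIs, 24.2% and 38.2% of control outer cells held a Col3a1 UMI, against 45.45% and 83.9% of injured ones. Unthinned shares were 60.6% and 67.3% against 78.8% and 94.5%, at median depths of 4411 and 6193 against 7999 and 6720 UMIs. Endothelial-like cells, thinned alike, held one in 2.94% of 34 cells and 0 of 17 cells in the injured libraries, with median depths of 3594 and 1866 UMIs.

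The type V chains Col5a1 and Col5a2 rose. Col5a1 was 149 and 136 CPM in control and 498 and 1282 CPM in injured outer cells (2.62 ± 0.54, edgeR adjusted p = 0.025). Col5a2 was 394 and 339 CPM against 1072 and 1900 CPM (1.99 ± 0.46, edgeR adjusted p = 0.045). Neither overlapped, and for both injured round 2 was the highest library.

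Col5a3 was nearly undetected in control outer cells when the Ccl11 and Dpep1 cluster was left out. Its UMIs were 2 and 1 in the control libraries and 55 and 2193 in the injured ones, or 11.4 and 2.35 CPM against 149 and 669 CPM. The ratio was 13.0 in round 1 (95% interval 3.44 to 110.2) and 284.2 in round 2 (50.96 to 11232), wide because the control counts were 2 and 1. The fitted difference of 6.25 ± 0.95 (edgeR adjusted p = 0.011) depends on the prior count at such counts, and a gene that entered the test only where it is high had to differ. With the Ccl11 and Dpep1 cluster in the class the UMIs were 4 and 56 in control and 59 and 2193 in injured libraries, or 21.6 and 104.7 CPM against 155 and 668 CPM. The ratio was then 7.17 (2.66 to 27.2) in round 1 and 6.38 (4.90 to 8.48) in round 2, and the fitted difference of 2.59 ± 0.72 was not called (edgeR adjusted p = 0.10).

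Of the type VI chains, Col6a3 rose and Col6a1 did not pass. Col6a3 was 657 and 492 CPM in control and 2260 and 2166 CPM in injured outer cells (1.90 ± 0.42, edgeR adjusted p = 0.035). Col6a1 was 943 and 1042 CPM against 2655 and 2618 CPM (1.36 ± 0.40, edgeR adjusted p = 0.11), and passed with the round as a block (adjusted p = 0.0047) and in DESeq2 (adjusted p = 0.047). The injured libraries of the 2 rounds lay close together for both.

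The fibril-surface collagens parted. Col12a1 rose, from 74.3 and 98.8 CPM in control to 244 and 699 CPM in injured outer cells (2.41 ± 0.56, edgeR adjusted p = 0.045). Col14a1 was 45.7 and 82.3 CPM in control and 24.4 and 66.5 CPM in injured libraries (-0.45 ± 0.53, edgeR adjusted p = 0.80). Its groups overlapped, and without control round 2 the difference was 0.043. With all libraries it was the only collagen of the 10 with a negative fitted difference.

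With the Ccl11 and Dpep1 cluster counted in the outer class (49, 60, 321 and 403 cells), edgeR called 3 of the 10 collagens, Col5a1, Col6a3 and Col12a1, where 1.02% of 5668 genes were called higher. The same 9 collagens still did not overlap between the groups, as for 23.3% of genes, and the median difference was 1.90. Col3a1 was then 1217 and 2223 CPM in control and 3884 and 9536 CPM in injured libraries, a difference of 1.95 ± 0.50 (edgeR adjusted p = 0.079). Col5a2 was no longer called either (1.92 ± 0.45, edgeR adjusted p = 0.051).

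The calls without that cluster depended on few cells. Without the round 1 barcodes shared by the 2 libraries, 6 of the 33 injured cells, the outer sum of injured round 1 fell from 369500 to 209745 UMIs. No gene of 4417 was then called, although the differences of Col3a1 (2.42) and Col5a1 (2.56) changed little. Their edgeR adjusted p was then 0.10 and 0.13, and that of Col5a3 0.067. Col3a1 in injured round 1 was then 3652 CPM, still above both control libraries. With cells classed 1 by 1 from marker scores 0 of the 10 were called, and 0 of 4920 genes. Without the cells of highest doublet score 3 were called, and 72 of 5125 genes. Leaving out 1 library, which leaves 1 in its group, changed the numbers of collagens and of all genes called. The difference then ran from 1.53 to 2.95 for Col3a1, 1.68 to 3.16 for Col5a1 and 1.68 to 2.14 for Col6a3. With the round as a block 8 of the 10 were called, where 5.04% of genes were higher.

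The outer class was made of different clusters in the 2 groups. The Myoc and Angptl7 cluster held 78.8% and 85.45% of control outer cells and 54.55% and 19.1% of injured ones. The Aspn and Cthrc1 cluster held 21.2% and 12.7% of control cells, 7 in each library, and 33.3% and 61.5% of injured ones. The dividing cells were 0% and 1.82% of control and 12.1% and 19.4% of injured outer cells, the 12.1% being 4 cells, of which 2 had shared barcodes. The summed level of the 18 outer markers was 28243 and 30978 CPM in control outer cells and 15959 and 13955 CPM in injured ones. That of the 15 inner markers was 14456 and 13475 CPM in control outer cells and 13762 and 5640 CPM in injured ones. All 8 mural markers were detected, at a sum of 120 and 148 CPM against 168 and 263 CPM. The endothelial list summed to at most 12.2 CPM with Kdr and Emcn at 0, the macrophage list to at most 34.8 CPM with Adgre1 at 0, and all T or NK and mast cell markers were at 0. The part of this makeup and of these markers in the class result was not tested, beyond the test within 1 cluster that follows.

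Within the Myoc and Angptl7 cluster (26, 18, 47 and 76 cells), none of the 8 collagens tested was called, where 0.203% of 3452 genes were. All 8 were nonetheless higher in both injured libraries than in either control, against 9.82% of genes. Col1a1 was 5364 and 5250 CPM in control and 15887 and 11377 CPM in injured cells of this cluster, without overlap. Its difference of 1.48 ± 0.36 (edgeR adjusted p = 0.11) was as large as over the whole class. Col3a1 was 472 and 1075 CPM against 1157 and 1295 CPM, a difference of 0.80 ± 0.45 (edgeR adjusted p = 0.999), and Col5a3 was at 7.15 and 2.62 CPM against 7.27 and 0 CPM. DESeq2 called 3 genes of this cluster, none of them among the 10. With 1 library left out, the difference ran from 1.37 to 1.59 for Col1a1 and from 0.41 to 1.51 for Col3a1.

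In the Aspn and Cthrc1 cluster of the injured libraries, Col3a1 stood at 9278 CPM (11 cells) and 11938 CPM (244 cells), with Col5a3 at 386 and 760 CPM. The control libraries had 7 cells each there, with 3103 and 5526 CPM of Col3a1 and 28.5 and 0 CPM of Col5a3, and no test was made. After thinning, Col1a1 and Col3a1 were detected together in 100% and 95.1% of the injured cells of this cluster. Over the whole outer class they were detected together in 24.2% and 30.9% of control and 45.45% and 81.9% of injured cells.

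**Figure D3:**
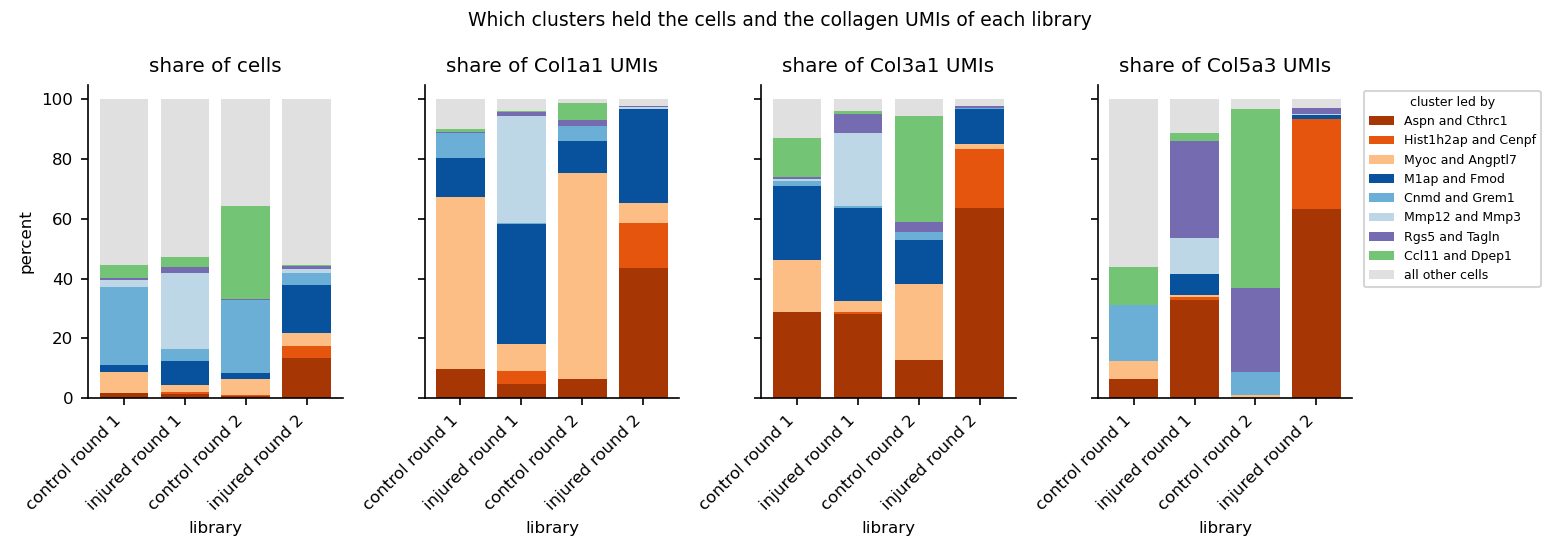
Percent of cells, and of Col1a1, Col3a1 and Col5a3 UMIs, held by each cluster (colours) in each library. The Aspn and Cthrc1 cluster held 43.6% of Col1a1 UMIs in injured round 2, whereas the M1ap and Fmod and the Mmp12 and Mmp3 clusters held 40.4% and 35.95% in injured round 1.

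The 2 injured libraries differed in where type I transcripts lay. The outer class held 67.4% and 75.3% of Col1a1 UMIs in control libraries and 65.3% in injured round 2, but 18.0% in injured round 1. The inner class held 77.4% in injured round 1, against 27.0%, 16.0% and 33.1% in control round 1, control round 2 and injured round 2. Col3a1 UMIs of injured round 2 lay 85.1% in the outer class, which was 21.6% of its cells. In injured round 1, mural-like and Aspn and Cthrc1 cells each held 32.7% of Col5a3 UMIs. Without the shared barcodes the inner class of injured round 1 held 72.3% of its Col1a1 UMIs and the outer class 18.9%, but the Mmp12 and Mmp3 cluster 17.55% in place of 35.95% and the M1ap and Fmod cluster 53.85% in place of 40.4%.

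In the inner class all 9 collagens tested were higher in both injured libraries than in either control library, where 14.2% of 10701 genes were, but edgeR called only Col1a1, against 0.028% of genes called higher. Col1a1 was 495 and 361 CPM in control and 3363 and 4319 CPM in injured inner cells. The groups did not overlap, and the difference was 3.29 ± 0.45 (SE, n = 2 per group; edgeR adjusted p = 0.043). Within rounds the ratio was 6.80 (95% interval 6.12 to 7.58) and 11.95 (10.91 to 13.13). The call did not hold without the shared barcodes, where the difference was 3.53 and the adjusted p 0.064, or without injured round 2, where they were 3.04 and 0.12. No collagen was called at a cluster resolution of 0.5 or 2, at a minimum of 500 genes per cell, or with cells classed 1 by 1 from marker scores. Genes called in these settings were 12 of 10314, 0 of 10451, 0 of 10869 and 1 of 7586.

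Col1a2 was 931 and 761 CPM in control and 2862 and 2957 CPM in injured inner cells, a difference of 1.91 ± 0.40 (edgeR adjusted p = 0.19). Col3a1 was 172 and 251 CPM against 454 and 705 CPM (1.60 ± 0.43, edgeR adjusted p = 0.32). Col5a2 was 146.5 and 148 CPM against 478 and 499 CPM (1.86 ± 0.37, edgeR adjusted p = 0.16). In each of these the 2 control libraries lay together, below both injured libraries. For type VI, Col6a1 was at 1168 and 1333 against 2894 and 2921 CPM (1.34 ± 0.39, edgeR adjusted p = 0.38). Col6a3 was 855 and 1126 CPM against 2464 and 2498 CPM, Col5a1 97.2 and 108 against 159 and 214.5 CPM and Col12a1 33.8 and 34.2 against 67.1 and 145 CPM. Col5a3 was at 3, 39, 7 and 53 UMIs, below 10 CPM in every library, and Col14a1 at 1, 1, 4 and 4 UMIs was not tested.

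With the round as a block 8 of these 9 were called higher (edgeR adjusted p = 4.9e-09 to 0.015), all but Col5a3, where 4.64% of genes were. DESeq2 called 6 where it called 0.374% of genes higher. The median difference of the 9 was 1.60, against -0.05 over all genes. With 1 library left out, the difference ran from 3.04 to 3.60 for Col1a1 and from 1.75 to 2.12 for Col1a2.

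The summed level of the 18 outer markers in inner cells was 6411 and 4818 CPM in control and 12636 and 12867 CPM in injured libraries, and that of the 15 inner markers 11678 and 10148 CPM against 14085 and 16768 CPM. Osteoblast or osteocyte markers (6 of 7 detected) summed to 1061 CPM in control round 1 and to 53.6, 22.8 and 9.36 CPM in control round 2, injured round 1 and injured round 2. The part of these markers in the inner class result was not tested.

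The inner class too was made of different clusters. The Cnmd and Grem1 cluster, low in type I, held 48.5% and 81.5% of control inner cells but 6.67% and 7.34% of injured ones. Without the shared barcodes it held 89.2% of the inner cells of control round 1, 99 of 111, in place of 48.5%. The M1ap and Fmod cluster, high in type I, held 4.41% (2.70% without the shared barcodes) and 7.09% of control and 13.1% and 28.5% of injured inner cells, and the Mmp12 and Mmp3 cluster 41.0% in injured round 1 and at most 4.41% in the other libraries. Within the Cnmd and Grem1 cluster (99, 32, 207 and 76 cells) edgeR called 0 of the 8 collagens tested and 0 of 5568 genes, with 2.01% at an unadjusted p under 0.05 and 0 genes by DESeq2. Col1a1 there was 188 and 151 CPM in control and 103 and 207 CPM in injured cells, with overlap, a difference of -0.07 ± 0.50 (edgeR adjusted p = 1.00). Of the 8, 5 did not overlap and were higher in both injured libraries, against 10.5% of genes. Col6a1 was 992 and 788 CPM against 1879 and 1622 CPM (1.00 ± 0.44, edgeR adjusted p = 1.00). Of the other inner clusters, 2 had at least 10 cells of both groups in round 2. The injured to control ratio of Col1a1 there was 3.19 (95% interval 2.86 to 3.58) in the M1ap and Fmod cluster and 3.47 (1.16 to 17.0) in the Gdf5 and Zfp52 cluster, the latter on 3 control UMIs. Other collagens went both ways there in the injured library of round 2. In the M1ap and Fmod cluster the ratio of Col3a1 was 0.669 (0.587 to 0.765), while that of Col6a3 was 1.48 (1.27 to 1.74). Col1a2, Col5a1, Col5a2, Col6a1 and Col12a1 were also higher in that cluster. In the Gdf5 and Zfp52 cluster the ratio was 0.821 (0.728 to 0.929) for Col6a1 and 0.776 (0.698 to 0.864) for Col6a3. By value alone Col3a1 and Col5a1 were also lower in the latter, and Col1a2, Col5a2 and Col12a1 higher. The Il11 and Npy cluster had 80 cells in control round 1, but 76 of them had shared barcodes, and no ratio is given for it. How far cluster makeup accounts for the class result was not tested.

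**Figure D4:**
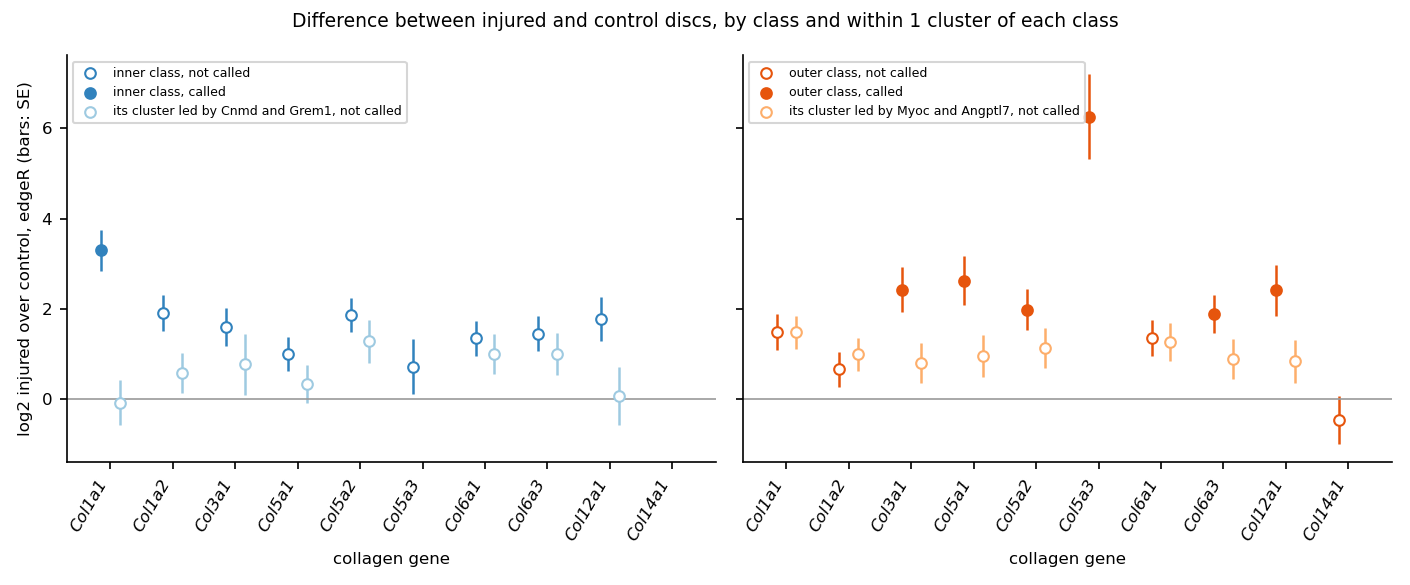
Log2 difference between injured and control discs (edgeR, bars are SE) for each collagen in the inner class and its Cnmd and Grem1 cluster (left) and the outer class and its Myoc and Angptl7 cluster (right); filled points passed an adjusted p under 0.05. In the inner class Col1a1 was at 3.29, and within the Cnmd and Grem1 cluster at -0.07.

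Whether the difference itself differed between the 2 classes was tested with an interaction term. None of the 10 collagens was called, where 0.185% of 9173 genes were, and an unadjusted p under 0.05 was found for 4 of the 10 and for 7.69% of genes. The 4 were the type I chains, both with a smaller value in the outer class, and Col5a1 and Col5a3, both with a greater one. The outer minus inner value was -1.85 ± 0.35 for Col1a1 (edgeR adjusted p = 0.057) and -1.25 ± 0.37 for Col1a2 (edgeR adjusted p = 0.28). It was 1.48 ± 0.42 for Col5a1 (edgeR adjusted p = 0.26) and 5.28 ± 1.09 for Col5a3 (edgeR adjusted p = 0.068), the last on 2 and 1 UMIs in the control outer cells. With the Ccl11 and Dpep1 cluster in the outer class the value of Col5a3 was 1.55 ± 0.82 (edgeR adjusted p = 0.82) and that of Col1a1 -1.71 ± 0.37 (edgeR adjusted p = 0.13). The value of Col3a1 was 0.71 ± 0.37 (edgeR adjusted p = 0.71) without that cluster and 0.27 ± 0.39 (edgeR adjusted p = 0.97) with it. Leaving out 1 library, again without that cluster, changed the numbers of collagens and of all genes called. The value then ran from -2.15 to -1.54 for Col1a1, 1.09 to 1.90 for Col5a1 and 3.95 to 6.46 for Col5a3. DESeq2 was not run for this term.

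Ratios of chains within a library do not depend on library size, but each still rests on how many molecules of both genes were captured. The ratio of Col1a1 to Col1a2 UMIs was 0.849 and 0.737 in control and 1.22 and 1.75 in injured libraries over all cells. In the inner class it was 0.531 and 0.475 against 1.17 and 1.46, and in the outer class 1.08 and 0.831 against 1.38 and 1.94. The groups did not overlap in any of the 3, although this ratio was added after its values were seen. The ratio of Col3a1 to Col1a1 moved in opposite directions in the 2 classes. It was 0.348 and 0.695 in control and 0.135 and 0.163 in injured inner cells, and 0.199 and 0.281 in control and 0.320 and 0.555 in injured outer cells. With the Ccl11 and Dpep1 cluster the outer values were 0.253 and 0.504 in control and 0.3298 and 0.555 in injured libraries, higher in the injured library of each round but overlapping. Within the Myoc and Angptl7 cluster alone it was 0.0880 and 0.205 in control and 0.0728 and 0.114 in injured cells, lower in the injured library of each round.

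Of the type V pairs, Col5a1 to Col5a2 was 0.664 and 0.732 in control and 0.333 and 0.430 in injured inner cells, but 0.377 and 0.403 against 0.465 and 0.675 in outer cells. Without the shared round 1 barcodes the outer ratio of injured round 1 lay between the 2 control values. Within the Myoc and Angptl7 cluster it was higher in the injured library of round 1 and lower in that of round 2. Col5a3 to Col5a1 was 0.0769 and 0.0172 in control and 0.299 and 0.522 in injured outer cells, but 0.129 and 0.5545 against 0.314 and 0.5215 with the Ccl11 and Dpep1 cluster. Col6a3 to Col6a1 was 0.697 and 0.472 in control and 0.851 and 0.827 in injured outer cells. The exact two-sided permutation test over 4 libraries cannot go below p = 0.33. It gave 0.33 for each ratio above over all cells, the inner class or the outer class as named (Benjamini-Hochberg adjusted 0.41 over 15 comparisons). The p-values do not cover the values with the Ccl11 and Dpep1 cluster, without shared barcodes or within the Myoc and Angptl7 cluster. In each of these the groups overlap.

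**Figure D5:**
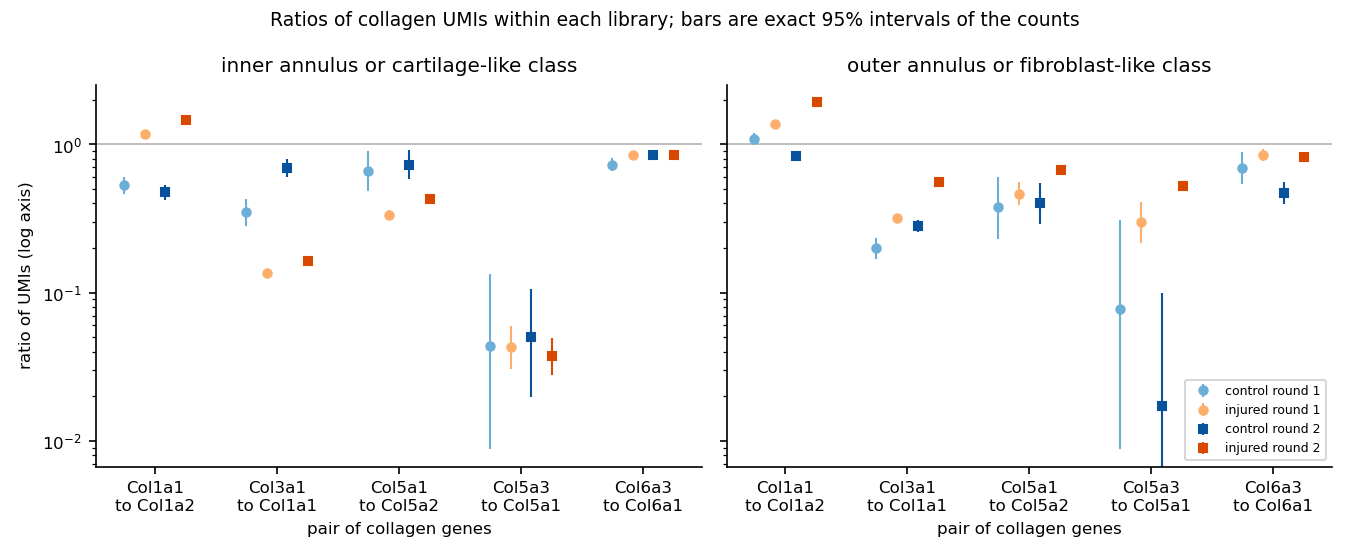
Ratio of UMIs of 2 collagen chains in each library (log axis) in the inner (left) and outer (right) classes, with exact 95% intervals that cover counting error only; the lower bar of Col5a3 to Col5a1 in control round 2, outer class, runs below the axis. The Col3a1 to Col1a1 ratio is lower in injured inner cells and higher in injured outer cells.

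Other genes of collagen biology were counted in 5 lists. In the outer class 3 of 26 tested genes of collagen synthesis and crosslinking were called higher and none lower, where 1.29% of all genes were called higher. Among genes that at least 1 control library carried past the filter they were 2 of 25, against 0.447%. A positive difference was found for 20 of the 26 and for 50.8% of all genes, with medians of 0.76 and 0.01. The 3 called were P4ha3, a prolyl hydroxylase subunit (4.38 ± 0.78, edgeR adjusted p = 0.016), Loxl1, a crosslinking amine oxidase (3.52 ± 0.80, adjusted p = 0.040), and Bmp1, the protease that removes procollagen C-propeptides (2.37 ± 0.54, adjusted p = 0.042). Of the fibril-associated matrix list 6 of 22 were called higher and none lower, again against 1.29% of all genes, with a median of 0.59 against 0.01; among genes that a control library carried past the filter they were 4 of 20, against 0.447%. They included Cthrc1, a secreted protein of remodelling tissue (6.42 ± 1.05, edgeR adjusted p = 0.013), Fbn1, the microfibril protein fibrillin-1 (2.95 ± 0.58, adjusted p = 0.023), and Tnc, the wound matrix glycoprotein tenascin-C (7.02 ± 1.39, adjusted p = 0.024). P4ha3, Cthrc1 and Tnc had at most 3 UMIs in either control library and, like Col5a3, entered the test only through the injured libraries, so they had to differ and their fitted values depend on the prior count. The other 3 of the 6 were Mfap5, Lum and Aspn, and these 3 with Cthrc1 are also markers used to name the outer class. None of 12 other collagens, 8 receptors or 4 collagenolytic proteases was called there, with medians of 0.32, 0.51 and 0.62.

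Over all cells and in the inner class, edgeR called no gene of the 5 lists. Of the synthesis and crosslinking genes, 26 of 28 tested over all cells and 24 of 26 in the inner class had a positive difference, as had 49% and 46.7% of all genes, with medians of 0.77 and 0.81 against -0.01 and -0.05. The other collagens had medians of 0.11 and 0.15. In the interaction test Fbn1 was called with a greater difference in the outer class (2.59 ± 0.43, edgeR adjusted p = 0.023) and Dcn, the collagen-binding proteoglycan decorin, with a lower one (-2.67 ± 0.37, adjusted p = 0.013). Within the Myoc and Angptl7 cluster Col11a2, a chain of the cartilage fibril collagen XI (2.63 ± 0.58, edgeR adjusted p = 0.044), and Sparc, a collagen-binding matricellular protein (1.66 ± 0.36, adjusted p = 0.038), rose.

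Over 13 sums of a class in a library, which share libraries and their depth, 5 genes followed the 10 collagens' mean level most closely. They were Pdgfra, a growth factor receptor of fibroblasts (Pearson r = 0.983), Fkbp10 (0.974) and Txndc5 (0.965), both endoplasmic reticulum proteins of protein folding, Thbs4 (0.954), a thrombospondin of tendon matrix, and Prrx2 (0.954), a homeobox factor of mesenchyme. Of the 10 collagens themselves, Col5a3 (0.659) and Col14a1 (0.735) followed their common mean least, and the other 8 had values from 0.870 to 0.982.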

How the data were processed

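The deposited values were UMI counts per gene and barcode, whole numbers that the authors obtained with Cell Ranger and the mm10 build, per the submitters' processing notes. The matrix of control round 1 names version 6.0.0 and the others version 4, per the file headers. The deposited counts were not normalized. The 10 genes, gene lists and alternatives were chosen with earlier results of these data known, and so was the rule for naming clusters. The text names all 10 collagens, up to 3 called genes per list and direction with the lowest adjusted p, and the 5 genes most like them.

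Barcodes with at least 250 genes were clustered without the 10 collagens (2000 variable genes, 30 components, 20 neighbours, Leiden resolution 1; scanpy 1.11.5, Python 3.11.15), giving 20 clusters. Of these, 14 were named from 19 marker lists, a marker counting at 25% of cells and 1.2 fold over other cells, with at least 3 needed; the rebuilt names can differ from the authors'. Doublets were kept, and a Scrublet-based alternative removed 1, 5, 6 and 27 cells. Round 1 barcodes were compared between libraries; those of round 2 were not used here.

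UMI counts of each library were added up over all its cells and over classes with at least 20 cells in every library (clusters: 10). They were tested two-sided with edgeR 4.0.16 (R 4.3.3; quasi-likelihood, default filter, TMM, injury as the only term), with Benjamini-Hochberg adjustment over all genes and calls at 0.05; DESeq2 1.42.0 was an alternative. Scripts were tested on simulated data. A level is 1000000 times UMIs over all UMIs of the same cells. Count intervals are exact Poisson, shares exact Clopper-Pearson at 95%, and ratios exact conditional; all cover counting error only, as UMIs of a pooled suspension are not replicates. The likeness measure used log2(CPM + 10). Control and injured discs of a round came from the same animals, per the labels. The deviations of the rounds were correlated, with r = 0.64 over 5755 genes. Blocked values, or their range, are therefore given where they change the call of a collagen.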

Additional observations from a re-analysis of the deposited data

Results flagged for a closer look

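For 3 chain ratios the injured libraries moved one way in both rounds in the inner class and the other way in both rounds in the outer class. The log2 change of Col3a1 to Col1a1 was -1.37 and -2.09 in inner cells of rounds 1 and 2 and 0.68 and 0.98 in outer cells, a difference between classes of 2.56. Within the Myoc and Angptl7 cluster of the outer class the same ratio was instead lower in the injured library of each round, at 0.0880 and 0.205 in control and 0.0728 and 0.114 in injured cells. For Col5a1 to Col5a2 the values were -0.99 and -0.77 against 0.30 and 0.74, a difference of 1.40. Without the shared round 1 barcodes the outer ratio of injured round 1 lay between those of the 2 control libraries, so that the groups overlapped. For Col5a3 to Col5a1 the values were -0.02 and -0.43 against 1.96 and 4.92, a difference of 3.66. This rests on 2 and 1 Col5a3 UMIs in the control outer cells and 3 and 7 in the control inner cells. With the Ccl11 and Dpep1 cluster in the outer class this ratio was 0.5545 in control and 0.5215 in injured round 2, so that it no longer moved one way in both rounds. Without the shared round 1 barcodes the Col5a3 to Col5a1 ratio of inner cells was 0.0484 in control and 0.0630 in injured round 1, so that its opposite movement did not hold in that round. The exact permutation p was 0.33 for each, the smallest that 2 libraries per group allow.

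Barcodes under 100 UMIs, which hold mostly free RNA, also carried the 10 collagens. They made up 0.452% of UMIs in such barcodes in injured round 1 and 0.409% in injured round 2, against 0.130% in control round 2; the control matrix of round 1 lists no such barcodes. Within cells the share was 1.31%, 2.33% and 0.640% in the same libraries. The part of free RNA in the low collagen levels of other cell types was not tested.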

How the results depend on the processing

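Of the 10 collagens, DESeq2 called 5 over all cells and 6 in the inner class, where it called 0.343% and 0.374% of genes higher. With no filter on low counts, 9 were called over all cells, as were 378 of 21419 genes. In the inner class 6 were then called, as were 195 of 19400 genes. With the replicate block, 9 were called over all cells (2.73% of genes higher), 8 in the inner class (4.64%) and 8 in the outer class (5.04%). The block moved Col12a1 in the Cnmd and Grem1 cluster to -0.023. In the inner class 0 were called at resolutions 0.5 and 2, at a minimum of 500 genes, by the per-cell marker score and without shared round 1 barcodes. Of all genes, 12 of 10314 were called there at resolution 0.5, 1 of 7586 by the marker score and 0 in the other settings. In the outer class 0 were called by the marker score, 3 without doublets, 0 without shared barcodes and 3 with the Ccl11 and Dpep1 cluster. Genes called in these settings were 0 of 4920, 72 of 5125, 0 of 4417 and 100 of 5668. Leaving out 1 library gave 0 to 7 calls over all cells, 0 to 3 in the inner class, 1 to 8 in the outer class, 0 to 4 in the interaction and 0 to 1 in the Myoc and Angptl7 cluster; the cause was not tested. In the interaction 1 was called at a minimum of 500 genes, where 20 of 9132 genes were, and some signs turned. Col5a2 was -0.10 at 500 genes and -0.24 without shared barcodes, Col6a1 -0.053, -0.014 (without doublets) and -0.25 (with the Ccl11 and Dpep1 cluster the 2 were -0.0071 and -0.092), Col3a1 -0.31 by marker score, and Col14a1 -3.17 at resolution 2 and -2.50 by marker score.

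With 1 library left out, Col14a1 ran from -3.64 to 0.069 over all cells and -1.58 to 0.043 in outer cells, and Col5a3 over all cells from -0.29 to 3.11. In the interaction Col5a2 ran from -0.24 to 0.41 and Col6a1 from -0.039 to 0.11. In the Cnmd and Grem1 cluster Col12a1 ran from -1.06 to 0.73 and Col1a1 from -0.72 to 0.40. The Col3a1 to Col1a1 ratio over all cells ran from -1.18 to 0.082 (log2). Genes called ranged over the alternatives from 0 to 736 over all cells (14 as reported), 0 to 939 in the inner (14), 0 to 568 in the outer class (97), 2 to 298 in the interaction (17), 0 to 40 in the Cnmd cluster (0) and 1 to 27 in the Myoc cluster (7). Without TMM factors the median of all genes moved from -0.05 to -0.18 in the inner class and from 0.02 to -0.16 in the Myoc cluster. Settings without TMM, by the UMI ratio of shared barcodes, without their clusters, with the Ccl11 and Dpep1 cluster and with only genes past the filter in a control library were added after seeing the data. Classes at resolution 0.5 were too small in 2 libraries (under 10 outer cells) for the outer and interaction fits, which were not run.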
